A study of Mus musculus with 10 samples.

Results

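The nuclear genes for subunits of the mitochondrial respiratory chain and ATP synthase were measured in endothelial cells purified from mouse gliomas, after endothelial deletion of Sox7 or Sox17. Members were taken by symbol: names beginning Ndufa, Ndufb, Ndufc, Ndufs or Ndufv with a number, Sdha to Sdhd, Uqcr, Cox4 to Cox8 and Atp5. The rule gave 84 of the 23238 gene symbols that all 10 count files list. Of these, 37 were assigned to complex I, 4 to complex II, 8 to complex III, 18 to complex IV and 17 to complex V. A filter on low counts left 79 for testing, and the 5 removed were Cox4i2, Cox6a2, Cox7b2, Cox8b and Cox8c.

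The respiratory chain sits in the inner mitochondrial membrane. Complex I and complex II pass electrons from NADH and succinate to ubiquinone, complex III hands them to cytochrome c, complex IV reduces oxygen to water, and complex V, the ATP synthase, makes ATP from the proton gradient that complexes I, III and IV build. Most subunits are encoded in the nucleus and a few in mitochondrial DNA, and endothelial cells are known to draw much of their ATP from glycolysis.

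Mice were on a C57BL/6 background and carried gliomas grown from a mouse glioma line placed in the brain. Sox7 and Sox17 encode SoxF transcription factors of endothelium. Floxed Sox7 or Sox17 alleles (Sox7fl/fl, Sox17fl/fl) were combined with Cdh5(BAC)-CreERT2, a recombinase driven from the regulatory region of the endothelial cadherin gene and switched on by tamoxifen. The 4 groups were Sox7 control (n = 2), Sox7-deficient (n = 2), Sox17 control (n = 3) and Sox17-deficient (n = 3). The deficient groups, called ECKO here as in the sample titles, received tamoxifen at 20 mg/kg into the peritoneum. The labels give neither the recombinase genotype nor the tamoxifen treatment of the controls, so deletion and treatment cannot be told apart. The sources used here do not give the age and sex of the mice, the purification method or any pooling of animals. Each ECKO library has a control of the same number, and such a pair is called a set. The labels do not say that libraries came from separate animals, so p-values measure the spread between these libraries, which may be technical.

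Total counts ran from 2085020 in Sox17 control 1 to 35098704 in Sox17 ECKO 2, and 3 counts corresponded to 0.0847 to 1.36 counts-per-million (CPM) of the scaled library. The deleted genes checked the labels: Sox7 had 193 and 64 counts in its controls and 4 and 5 in its ECKO libraries, and Sox17 had 384, 1140 and 1508 against 14, 38 and 54. All 12 endothelial markers were detected in every library, with summed levels of 8760 to 17640 CPM. Sox7 ECKO 1 stood apart, with 13510 CPM of 12 macrophage markers against 18.15 to 806 CPM in the other 9 libraries, and with the lowest endothelial sum. Sox17 control 1, the shallowest library, held 3227 CPM of erythroid transcripts against 39.81 to 483.9 CPM elsewhere. In bulk samples, fewer cells of a type and less RNA per cell cannot be told apart.

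Transcription of many of these genes is known to use NRF-1, whose sites are GC-rich palindromes, and GABP, an ETS-family factor. The sequences below show how such motif letters sit close to the start of a member of each complex. RefSeq promoters (GRCm38.p6, 250 bases before to 50 after the start) were matched for 69 of the 84 genes. The NRF-1 letters (GCGCA, any base, GCGC), on either strand, stood in 17 of 69 (24.6%), against 5.19% of all 27025 genes in the table and 11.2% of the 9817 tested genes matched by symbol. By complex, the NRF-1 letters stood in 7 of 32 matched genes of complex I, 2 of 3 of complex II, 1 of 5 of complex III, 1 of 13 of complex IV and 6 of 16 of complex V. The windows are 30 bases each, on the strand of the gene, with the motif in capitals.
Ndufa6 (complex I, chr15:82354249-82354278, minus strand): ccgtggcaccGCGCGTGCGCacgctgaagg
Sdha (complex II, chr13:74350231-74350260, minus strand): gcgactcggtGCGCAAGCGCagtctgtcgc
Uqcrc1 (complex III, chr9:108936643-108936672, plus strand): cttccttacaGCGCTTGCGCctcagactcc
Cox6a1 (complex IV, chr5:115349056-115349085, minus strand): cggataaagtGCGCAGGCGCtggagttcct
Atp5g3 (complex V, chr2:73911295-73911324, minus strand): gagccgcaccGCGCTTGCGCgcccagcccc

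The GABP/ETS letters CCGGAAG, on either strand, stood in 16 of the 69 promoters (23.2%), against 9.93% of all genes in the table and 19.5% of the tested genes, so the members lay near the share of expressed genes. Windows with these letters, or with their reverse complement where the match was on the other strand, are shown for a member of each complex.
Ndufb7 (complex I, chr8:83566727-83566756, plus strand): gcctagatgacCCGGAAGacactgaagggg
Sdhb (complex II, chr4:140961266-140961295, plus strand): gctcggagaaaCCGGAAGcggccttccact
Uqcrh (complex III, chr4:116075062-116075091, minus strand): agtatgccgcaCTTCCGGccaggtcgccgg
Cox8a (complex IV, chr19:7217603-7217632, minus strand): tttccgaaataCTTCCGGctcgggcgtccg
Atp5l (complex V, chr9:44920700-44920729, minus strand): tgccgcgggtcCTTCCGGgggtgacattca
Both motifs stood in 4 promoters, those of Atp5h, Atp5k, Cox6a1 and Sdhd (5.8%, against 1.12% of all genes in the table). The share among tested genes, which was the higher one for each motif alone, is not given for both together. The 2 motifs could share only an end base, and a match is a description of the letters, not of binding.

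The respiratory chain genes were well expressed in glioma endothelium. Over the 10 libraries the median mean level of the tested members was 82.75 CPM, against 18.6 CPM for all 13040 genes tested. Libraries were made from 3′ tags, which give about 1 tag per transcript whatever its length, so CPM serves here as a level per transcript for comparison between genes. Of the 84 genes, 33 had a mean of at least 100 CPM and 9 a mean under 10 CPM. The 5 most abundant carried 25.9% of the summed level. All members together took 0.601% to 1.17% of the counts of a library.

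**Figure D1:**
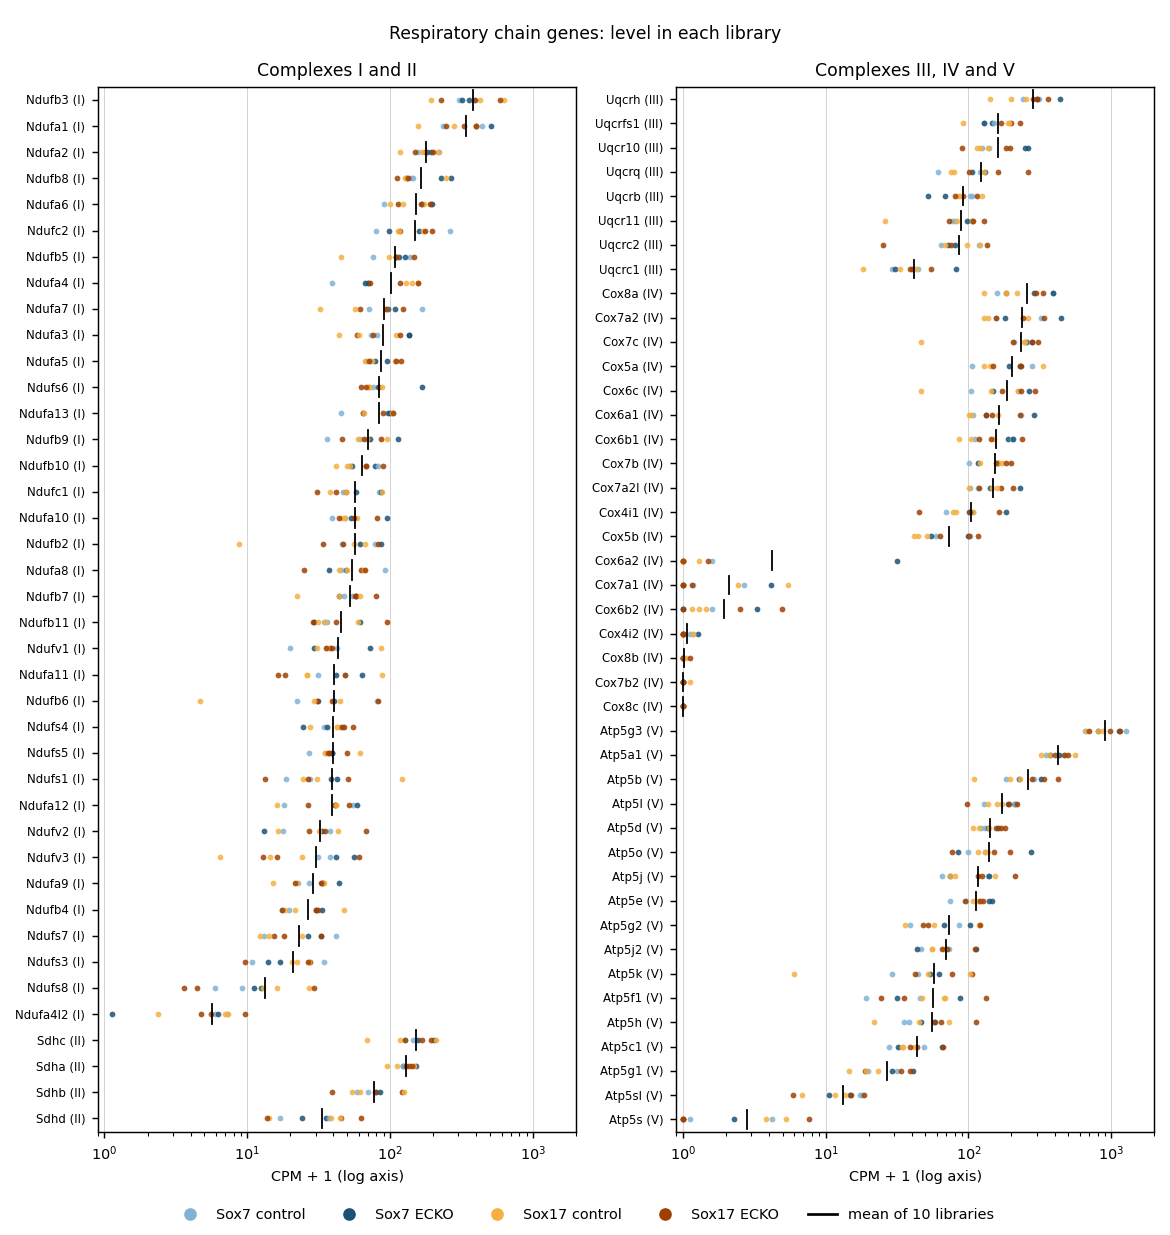
Level of 83 of the 84 genes in each of the 10 libraries, as CPM + 1 on a log axis, grouped by complex and ordered by mean level; points are libraries coloured by group and the black tick is the mean. Atp5g3 stands highest, at 652 to 1260 CPM, and the Cox4i2, Cox7b2, Cox8b and Cox8c points stay at the left edge in all libraries.

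In complex I the highest levels were those of accessory subunits. Ndufb3 had 301 and 384 CPM in Sox7 controls, 315 and 357 in Sox7 ECKO, 192, 620 and 422 in Sox17 controls and 227, 585 and 393 in Sox17 ECKO. Those of Ndufa1, an X-linked subunit of the membrane arm, were 233 and 438, then 396 and 506, then 156, 396 and 277, and then 245, 328 and 394 CPM in the same order of groups. Ndufa2, a small subunit of the matrix arm, had 156 and 217, then 192 and 181, then 213, 116 and 167, and then 149, 174 and 199 CPM. None of the 3 genes separated ECKO from control libraries in either arm, and for Ndufb3 and Ndufa1 the lowest value was that of Sox17 control 1. Core subunits that carry iron-sulphur clusters or flavin were expressed less. Mean levels were 41.9 CPM for Ndufv1, 38.2 for Ndufs1, 31.3 for Ndufv2, 22.1 for Ndufs7 and 12.2 for Ndufs8. Ndufs3, another core subunit, had a mean of 20.0 CPM.

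Complex II, succinate dehydrogenase, also works in the citric acid cycle. Sdha, its flavoprotein, had the steadiest level of all members with a mean of at least 10 CPM: 127 and 121 CPM in Sox7 controls, 121 and 150 in Sox7 ECKO, 93.9, 111 and 145 in Sox17 controls and 127, 134 and 142 in Sox17 ECKO. Its coefficient of variation (CV, the SD over the mean) over the 10 libraries was 0.132, against a median of 0.362 over 75 such members and a highest of 0.803, that of Ndufs1. Sdhb, the iron-sulphur subunit, had 57.6 and 68.7 CPM in Sox7 controls against 83.9 and 78.3 in Sox7 ECKO, and Sdhc, a membrane anchor, 125 and 144 against 155 and 202. The 2 groups did not overlap for either gene in the Sox7 arm and overlapped in the Sox17 arm.

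Complex III was led by Uqcrh, the hinge protein of the cytochrome c1 site, at a mean of 281.6 CPM, and by Uqcrfs1, the Rieske iron-sulphur protein, at 160.9 CPM. Uqcrfs1 had 128 and 149 CPM in Sox7 controls, 144 and 127 in Sox7 ECKO, 90.8, 190 and 187 in Sox17 controls and 197, 227 and 169 in Sox17 ECKO, with overlap in both arms. Complex IV was led by Cox8a, Cox7a2 and Cox7c, with means of 256.2, 235.2 and 231.2 CPM. Cox7c was low in Sox17 control 1, as some members named below also were. It had 45.4 CPM there against 249 and 242 CPM in the other Sox17 controls and 205 to 304 CPM in the remaining 7 libraries. Complex V held the most abundant member, Atp5g3, which encodes the c-subunit of the rotor ring together with Atp5g1 and Atp5g2. Atp5g3 had 652 and 1260 CPM in Sox7 controls and 803 and 1130 in Sox7 ECKO. Its levels in the Sox17 arm were 659, 873 and 810 CPM in controls and 973, 1140 and 697 in ECKO libraries. The 3 genes code for the same mature protein, and mean levels were 898.8 CPM for Atp5g3, 72 for Atp5g2 and 26.0 for Atp5g1. Atp5a1 and Atp5b, the alpha and catalytic beta subunits, had means of 421.1 and 257.9 CPM. Several members have processed pseudogenes or close copies, and how shared tags were assigned is not given in the sources used here, so levels of such genes are uncertain.

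Isoforms known for restricted expression were at or near 0. Cox8c had 0 counts in all 10 libraries, Cox8b at most 1 count, Cox7b2 at most 2, and Cox4i2, a lung isoform regulated by oxygen, at most 3. Their common partners were expressed, with means of 256.2 CPM for Cox8a, 151.7 for Cox7b and 102.9 for Cox4i1. Cox7a1, the heart and muscle partner of Cox7a2, had 14 and 2 counts in Sox7 controls, 22 and 0 in Sox7 ECKO, 0, 56 and 23 in Sox17 controls and 0, 6 and 0 in Sox17 ECKO. Cox6b2, a testis isoform, had at most 32 counts in a library, against a mean of 153.7 CPM for Cox6b1. Ndufa4l2, which is induced by hypoxia, had 0.133 to 8.55 CPM, against a mean of 100.6 CPM for Ndufa4. Ndufa4 itself is named for complex I but is a subunit of complex IV. It had 38.4 to 69.2 CPM in the 4 Sox7-arm libraries and 71.2 to 156 CPM in the 6 Sox17-arm libraries. No run label is shared between the arms, so arm and run cannot be told apart. Cox6a2, the muscle isoform, had 212 counts (30.6 CPM) in Sox7 ECKO 1 and 0 to 5 counts in each of the other 9 libraries. Sox7 ECKO 1 is also the library rich in macrophage transcripts. The part of those cells in the Cox6a2 level was not tested. Atp5s and Atp5sl match the name rule but encode assembly or coupling proteins. Atp5s had 0 counts in 4 libraries and up to 54 in the others, and Atp5sl had 4.91 to 17.7 CPM. None of 13 mitochondrially encoded subunit genes is listed in the files, so the match between nuclear and mitochondrial transcripts was not analysed here.

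On the TMM-scaled CPM, the summed level of the 84 genes was higher in the ECKO library than in its control in all 5 sets, by factors that differed widely. In Sox7 set 1 the sum was 6845 CPM in the control and 9606 CPM in the ECKO library (ratio 1.4), and in set 2 it was 10026 and 10561 CPM (ratio 1.05). In the Sox17 arm the sums were 7142 and 10574 CPM in set 1 (ratio 1.48), 8705 and 9411 CPM in set 2 (ratio 1.08), and 7870 and 8792 CPM in set 3 (ratio 1.12). As shares of the counts of a library, without TMM scaling, the ratios were 1.2 and 1.05 in the Sox7 sets and 1.52, 0.997 and 1.15 in the Sox17 sets, so the direction in Sox17 set 2 depended on the scaling (0.953% in the control and 0.951% in the ECKO library). On both scales the largest ratio of each arm was that of its first set. Sox17 set 1 has the shallowest library as its control, at 2085020 counts against 6681760 in its ECKO library. The Sox7 set 1 libraries had similar depths of 9515034 and 9207072 counts. Rn45s, a ribosomal RNA precursor, took 22.2% of counts in Sox7 control 1 and 28.8% in Sox7 ECKO 1. It took 4.64% and 7.03% in Sox7 set 2, and 3.93% to 16.8% in the Sox17 libraries. The part of this RNA in the unscaled ratios was not tested. Group means were 8436 ± 2249 CPM (SD, n = 2) for Sox7 control and 10080 ± 675.2 (n = 2) for Sox7 ECKO. They were 7906 ± 782 (n = 3) for Sox17 control and 9592 ± 905.1 (n = 3) for Sox17 ECKO. The Sox7 groups overlapped, since control 2 exceeded ECKO 1. On the TMM-scaled CPM the 3 Sox17 ECKO sums all lay above the 3 control sums, the closest being 8792 CPM against 8705 CPM. As unscaled shares the Sox17 groups overlapped, with 0.756%, 0.953% and 0.756% in controls and 1.15%, 0.951% and 0.867% in ECKO libraries. No p is given for these sums, because the members were chosen with earlier results known.

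**Figure D2:**
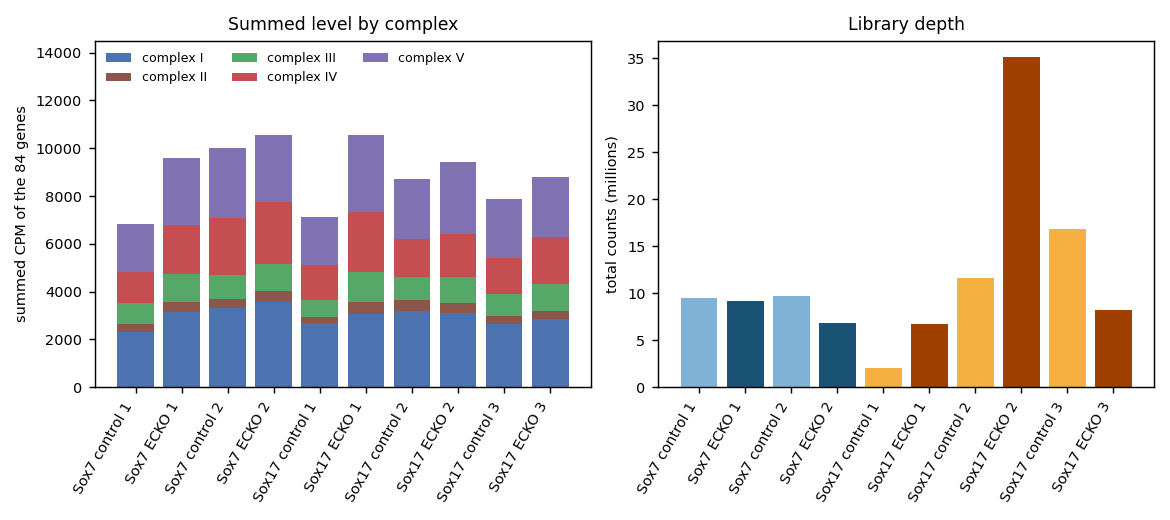
Left, summed CPM of the 84 genes in each library, stacked by complex; right, total counts of each library. Every ECKO bar at left is taller than the control bar of the same number on this TMM-scaled CPM, most in the first sets (ratios of 1.4 and 1.48), though as a share of counts Sox17 set 2 is level (0.997), and Sox17 control 1 is the shortest bar at right.

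The complexes kept similar shares of the sum in all libraries. Complex I took 28.8% to 37.6%, complex II 3.3% to 5.51%, complex III 9.89% to 13.0%, complex IV 18.2% to 24.2% and complex V 26.8% to 32.1%. The lowest and highest shares of complex I were those of the Sox17 set 1 libraries, 37.6% in the control and 28.8% in the ECKO library.

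Gene by gene, the sets differed as the sums did. In Sox7 set 1, 72 of 79 tested members were higher in the ECKO library (91.1%, against 51.4% of all genes tested), with a median difference of 0.48 on the log2(CPM + 1) scale against 0.03 for all genes. Set 2 of the Sox7 arm had 44 higher (55.7%, against 43.5%) and a median of 0.11 against 0.00. In Sox17 set 1, 62 members were higher (78.5%, against 53.0%), with a median of 0.54 against 0.12. In Sox17 set 2, 44 were higher (55.7%, against 46.7%), with a median of 0.03 against 0.00, and in set 3, 43 were higher (54.4%, against 43.5%), with a median of 0.11 against −0.12. The member median thus lay above that of all genes in each set, by much more in the first sets than in the other 3.

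**Figure D3:**
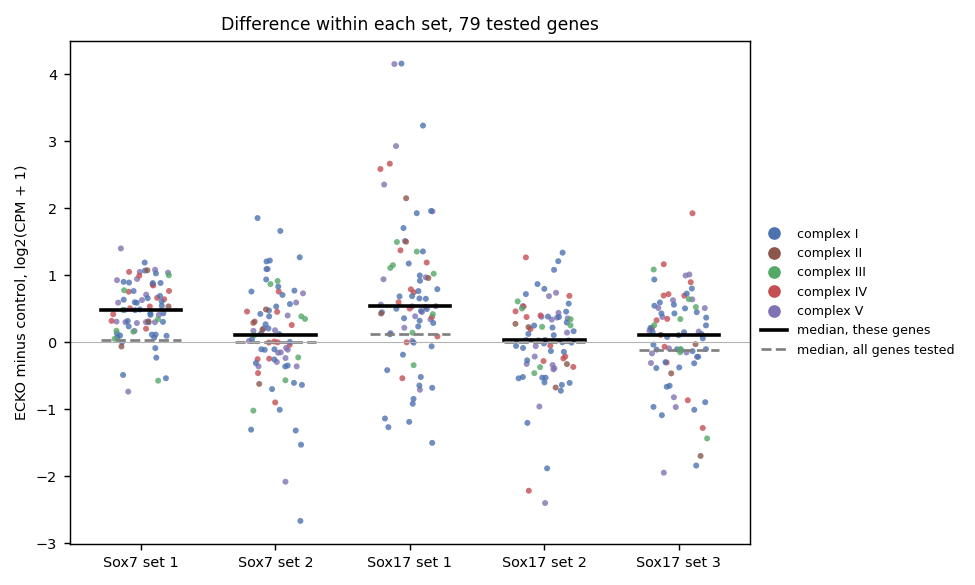
ECKO minus control on the log2(CPM + 1) scale within each of the 5 sets, for the 79 tested genes coloured by complex; the solid bar is their median and the dashed bar the median of all genes tested. The solid bar lies at 0.48 and 0.54 in the first set of each arm and between 0.03 and 0.11 in the other 3, with genes on both sides of 0 in every set.

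In the Sox7 comparison no member passed the test. edgeR called 0 of 79 members and 0 of 13040 genes (0.0% called) at an adjusted p under 0.05, and 0 members had an unadjusted p under 0.05, against 195 genes (1.5%). Sox7 itself, the deleted gene, was not called by edgeR, so a lack of calls does not show that members were unchanged. DESeq2 called 0 members, and 3 genes in all. Fitted values were above 0 for 61 members (77.2%, against 51.9% of all genes), with a median log2 fold change of 0.33 against 0.04. That median was 0.05 without Sox7 control 1, with 42 of 80 members above 0 and a median of 0.22 for all genes. It was 0.57 without Sox7 control 2, a fit for which the median of all genes is not given here. Markers of other cells and of the endothelium moved beside the members' median. Of the macrophage markers 12 of 12 were fitted above 0 (median 3.49), and of the endothelial markers 2 of 12 were (median −0.42). Macrophage markers were higher in set 1 only, with median log2(CPM + 1) differences of 4.05 in set 1 and −0.92 in set 2. Smooth muscle markers lay above 0 in 6 of 6 (median 1.01) and pericyte markers in 7 of 9 (median 0.51). Erythroid markers lay above 0 in 3 of 6, and neutrophil, neuron and fibroblast markers in 2 of 4 each. Of the 12 endothelial markers, 7 lay lower in both ECKO libraries than in both controls, against 12.8% of all genes tested. The endothelial sums were 14520 and 13110 CPM in controls and 8760 and 11990 CPM in ECKO libraries. The part of these markers in the members' median was not tested. By complex the medians were 0.31 for complex I (26 of 37 above 0), 0.26 for complex II (4 of 4), 0.37 for complex III (5 of 8), 0.33 for complex IV (12 of 13) and 0.35 for complex V (14 of 17). Sox7 ECKO 1 is the library with 13510 CPM of macrophage markers, and the median without it was 0.24, with 53 of 79 above 0 and a median of −0.26 for all genes.

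With 2 libraries a group, 22 members lay higher in both ECKO libraries than in both controls (27.8%, against 12.7% of all genes tested) and 2 lay lower (2.53%, against 12.8%). Uqcr10 (chr11:4701973-4704342, minus strand), a small subunit of complex III, had the smallest p. Its levels were 123 and 139 CPM in controls and 246 and 262 CPM in ECKO libraries, a log2 fold change of 0.96 (SE 0.47, unadjusted edgeR p 0.058, adjusted p 1). The ECKO levels were thus apart from the controls and close to each other. Uqcrb, another small subunit of complex III, was 1 of the 2 that lay lower: it had 101 and 105 CPM in controls and 67.4 and 51.5 CPM in ECKO libraries, a log2 fold change of −0.79 (SE 0.48). The other was Atp5sl, with 16.5 and 17.1 CPM against 9.53 and 13.8 CPM.

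Complex I gave 13 of the 22 higher members. Ndufb8 had 143 and 138 CPM in controls and 265 and 225 CPM in ECKO libraries (log2 fold change 0.80, SE 0.47). Ndufb9 had 60 and 34.8 CPM against 70.9 and 112 (0.95, SE 0.55). Ndufa13, also known as GRIM-19, had 63.1 and 44.2 CPM against 98.6 and 95.4 (0.85, SE 0.50). Each of these is an accessory subunit, and all had an adjusted edgeR p of 1. Ndufa3 had 71.8 and 79.4 CPM in controls against 134 and 135 in ECKO libraries (0.83, SE 0.54). Atp5e, the epsilon subunit of the ATP synthase stalk, had 72.8 and 94.9 CPM against 139 and 144 (0.75, SE 0.45). Cox7a2l, listed with complex IV, had 115 and 102 CPM against 230 and 140 (0.77, SE 0.48). Groups of these 6 genes did not overlap, and the 2 ECKO values were far apart for Ndufb9 and Cox7a2l. The other higher members of complex I were Ndufa5, Ndufa9, Ndufa10, Ndufb4, Ndufs1, Ndufs5, Ndufs6, Ndufs8 and Ndufv3. Ndufs8, an iron-sulphur subunit with low levels, had 4.91 and 8.2 CPM in controls against 11.4 and 10.1 in ECKO libraries, and its Sox17 values ran from 2.61 to 28.2 CPM with overlap. In Ndufs5 the separation was within rounding, with 38.1 and 26 CPM in controls and 38.1 in both ECKO libraries.

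**Figure D4:**
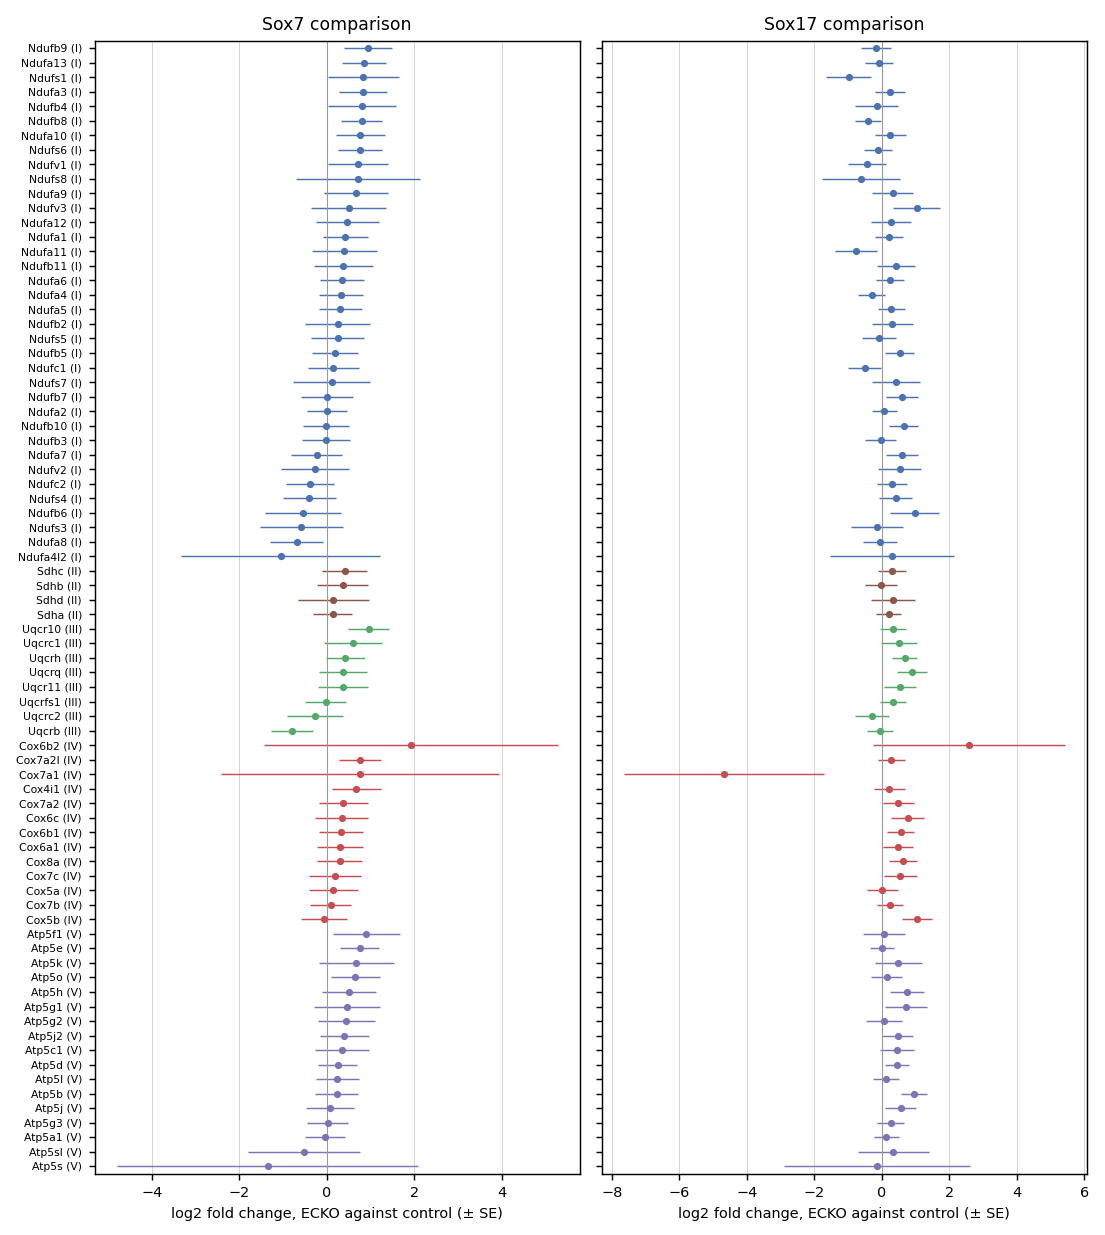
Log2 fold change, ECKO against control, with its SE, for 78 of the 79 tested genes in the Sox7 (left) and Sox17 (right) comparisons, coloured by complex and ordered within a complex by the Sox7 value. Most points lie right of 0 (61 at left, 58 at right), and none passed the adjusted threshold.

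The Sox17 comparison also called no member. edgeR called 0 of 79 members and 0 of 13040 genes (0.0% called), and 2 members had an unadjusted p under 0.05 (2.53%), against 459 genes (3.52%), so the members' share was not above the background. Sox17 itself, the deleted gene, was not called by edgeR, and the smallest adjusted edgeR p of all genes was 0.226. A lack of calls thus does not show that members were unchanged. DESeq2 called 0 members, and 29 genes in all. Fitted values were above 0 for 58 members (73.4%, against 52.8%), with a median log2 fold change of 0.29 against 0.05. Markers of pericytes, smooth muscle, macrophages and erythroid cells were fitted lower beside it. Above 0 lay 0 of 9 pericyte markers (median −1.03) and 1 of 6 smooth muscle markers (median −0.84). For macrophage markers it was 0 of 12 (median −0.81), and for erythroid markers 0 of 6 (median −2.25). In other lists, 0 of 4 neutrophil, 1 of 3 T and NK cell and 1 of 3 oligodendrocyte markers lay above 0. Neuron markers lay above 0 in 4 of 4, astrocyte markers in 3 of 6, glioma and neural progenitor markers in 2 of 4, and fibroblast markers in 2 of 4. Endothelial markers had a median of 0.12, with 8 of 12 above 0. The pericyte sums were 869.5, 739.2 and 287 CPM in controls and 216.9, 245.3 and 249.5 CPM in ECKO libraries. The part of these markers in the members' median was not tested. The members' median was 0.16 without Sox17 ECKO 1 and 0.18 without Sox17 control 1, the 2 libraries of set 1. The median of all genes in these 2 fits is not given here. By complex it was 0.23 for complex I (21 of 37 above 0), 0.25 for complex II (3 of 4), 0.43 for complex III (6 of 8), 0.49 for complex IV (12 of 13) and 0.34 for complex V (16 of 17).

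The 2 members with an unadjusted p under 0.05 were Atp5b and Cox5b. Atp5b (chr10:128083273-128090391, plus strand), which holds the catalytic sites of ATP synthase, had 108, 230 and 195 CPM in controls and 419, 335 and 278 CPM in ECKO libraries. All 3 ECKO values exceeded all 3 controls, with means of 178 ± 63.1 and 344 ± 71 CPM (SD, n = 3 each). The log2 fold change was 0.95 (SE 0.40, unadjusted edgeR p 0.0278, adjusted p 1). Cox5b (chr1:36691449-36693681, plus strand), a zinc-binding subunit of complex IV, had 43.1, 40.9 and 50.6 CPM in controls and 62.6, 99.9 and 115 CPM in ECKO libraries. The log2 fold change was 1.04 (SE 0.44, unadjusted edgeR p 0.0299, adjusted p 1).

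In all, 6 members lay higher in all 3 Sox17 ECKO libraries than in all 3 controls (7.59%, against 4.13% of all genes tested) and 0 lay lower (against 4.23%). Besides Atp5b and Cox5b they were Ndufs4, Ndufb10, Uqcrh and Atp5d. Uqcrh had 140, 198 and 253 CPM in controls and 360, 281 and 302 CPM in ECKO libraries (log2 fold change 0.67, SE 0.37). Ndufb10 had 48.6, 40.8 and 51.4 CPM against 66.6, 87.5 and 66.6 (0.65, SE 0.43). Atp5d, the delta subunit of the stalk, had 117, 139 and 107 CPM against 154, 178 and 167 (0.46, SE 0.36). Uqcrq, a small subunit of complex III, came close by p but overlapped, with 128, 77.8 and 75 CPM in controls and 260, 99.1 and 160 CPM in ECKO libraries (0.89, SE 0.44). For Cox6c and Cox8a of complex IV the values were led by set 1. Cox6c had 45.4, 221 and 142 CPM in controls and 293, 171 and 231 CPM in ECKO libraries, and Cox8a had 127, 216 and 183 against 330, 183 and 297. The ECKO library lay below its control in set 2 for both genes.

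Of the 79 tested members, 23 had their lowest level of all 10 libraries in Sox17 control 1 and 22 their highest in Sox17 ECKO 1. Among genes with a mean of at least 10 CPM, Sox17 control 1 was the lowest library for 30.7% of 75 members and 24.8% of 8320 genes, and Sox17 ECKO 1 was the highest for 28.0% of members and 11% of genes. Low values in Sox17 control 1 were thus common among all genes. Ndufb6 had 8 counts (3.63 CPM) in Sox17 control 1 and 21.2 to 81.6 CPM in the other 9 libraries. Atp5k, the e subunit of ATP synthase, had 11 counts (4.99 CPM) there against 28.0 to 105 CPM, and Ndufv3 had 12 counts (5.45 CPM) against 11.9 to 59.6 CPM. Not all members went that way: Ndufs1, the largest subunit of complex I, had its highest level in that library, 120 CPM against 12.2 to 49.2 CPM in the other 9. The median member had 154 counts in Sox17 control 1 and 529 to 2991 in the others. Counting error alone gave the median member a CV of 7.88% in Sox17 control 1 and 1.77% to 4.24% in the others.

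Across both arms, 9 members were higher in the ECKO library in 5 of 5 sets (11.4%, against 3.32% of all genes tested), and 0 were lower in 5 of 5 (against 3.34%). They were Ndufa5 of complex I, Uqcrc1, Uqcrh, Uqcrq and Uqcr11 of complex III, Cox6a1 and Cox7a2 of complex IV, and Atp5b and Atp5d of complex V. The sizes varied between sets: for Atp5d the differences on the log2(CPM + 1) scale were 0.30 and 0.18 in the Sox7 sets and 0.39, 0.36 and 0.64 in the Sox17 sets, and for Cox6a1 they were 0.32 and 0.29, then 0.50, 0.53 and 0.35. Uqcrc1, a core protein of complex III, ranged more widely, at 0.05 and 0.87, then 1.15, 0.23 and 0.35. No set test or p was computed for these counts.

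The 2 comparisons were set against each other in a contrast of the Sox7 minus the Sox17 log2 fold change. edgeR called 0 of 79 members and 0 of 13040 genes (0.0% called), and 0 members had an unadjusted p under 0.05, against 374 genes (2.87%). DESeq2 called 0 members, and 14 genes in all. The median over members was −0.07 against 0.02 for all genes, and 36 of 79 lay above 0 (45.6%, against 50.6%). The smallest p was that of Ndufb8, with a contrast of 1.22 (SE 0.60, unadjusted edgeR p 0.0591, adjusted p 1). In the Sox17 arm Ndufb8 had 243, 126 and 128 CPM in controls and 110, 129 and 133 CPM in ECKO libraries. Only Sox17 control 1 lay high there, and the other 5 libraries lay within 110 to 133 CPM. Ndufs1 had a contrast of 1.82 (SE 1.05): its Sox7 values were 17.6 and 26.5 CPM in controls and 41.4 and 37.3 in ECKO libraries, and in the Sox17 arm Sox17 control 1 again lay high. Cox5b had a contrast of −1.11 (SE 0.69), with 57.9 and 102 CPM in Sox7 controls and 98.4 and 54.1 in Sox7 ECKO, which lay on opposite sides in the 2 sets. Ndufs6 had one high library, 165 CPM in Sox7 ECKO 2 against 61.4 to 86.8 CPM in the other 9. Ndufv1, the subunit that oxidises NADH, had 41.7 and 18.9 CPM in Sox7 controls against 28.4 and 70.9 in Sox7 ECKO, and 84.9, 35.1 and 29.6 against 36.7, 38.4 and 34.5 CPM in the Sox17 arm. Its contrast was 1.15 (SE 0.89), and Sox17 control 1 again lay apart. In 3 members, Ndufa11, Ndufb9 and Ndufs4, every Sox7 set lay one way and every Sox17 set the other (3.8%, against 5.27% of all genes tested). For no member did the difference between the arms pass the adjusted threshold.

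Splitting the members by promoter letters gave medians close to each other in the Sox7 comparison. The 17 with the NRF-1 letters had a median log2 fold change of 0.35 and the 50 without 0.31, and the values were 0.24 and 0.34 in the Sox17 comparison. For the GABP/ETS letters the medians with (16 genes) and without (51 genes) were 0.31 and 0.35 in the Sox7 comparison, and 0.51 and 0.28 in the Sox17 comparison. These are descriptions, with no test.

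Other genes of the pathway are given for reference, and edgeR called none of them in either comparison. The name rule misses 6 genes listed here, for subunits or partner proteins of the complexes. All 6 lay above 0 in both comparisons, with median log2 fold changes of 0.40 (Sox7) and 0.62 (Sox17). Among them Cyc1, the cytochrome c1 of complex III, had 29.5, 30.3 and 22.4 CPM in Sox17 controls and 68.1, 44.6 and 34.7 CPM in Sox17 ECKO. Atpif1, the inhibitor of ATP synthase, had 69.9, 103 and 84.2 against 145, 120 and 147 CPM. In the Sox7 arm Atpif1 had 58.9 and 69.1 CPM in controls against 121 and 70.1, and 2010107E04Rik, a small ATP synthase subunit, 68.8 and 84.8 against 86.9 and 118. Cyc1 and Atpif1 separated ECKO from control libraries in the Sox17 arm, and 3 of the 6 did so (the share of all genes was 4.13%). The 46 assembly factors lay closer to the background, with medians of 0.16 and 0.09 (28 and 27 above 0). Coa7, a factor of complex IV assembly, was the only one with an unadjusted p under 0.05, and it lay lower: it had 23.1, 3.32 and 7.43 CPM in Sox17 controls and 0.963, 1.1 and 0.744 in Sox17 ECKO (log2 fold change −3.56, SE 1.30, unadjusted edgeR p 0.0132, adjusted p 1). Lyrm7, a complex III factor, had 0, 0 and 0.805 CPM against 7.57, 0.0282 and 6.95 in the same arm. In the Sox7 arm Cox14 had 56.1 and 44.2 CPM in controls against 96 and 98.1 in ECKO libraries, and Cox18 had 8.02 and 30.8 against 8.08 and 6.64, both being complex IV factors.

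The 25 genes of the citric acid cycle and pyruvate entry had medians of 0.05 and −0.01 (13 and 12 above 0). Those of smallest p went both ways. Pdhx, a part of pyruvate dehydrogenase, had 18.8 and 41.9 CPM in Sox7 controls and 11.4 and 5.97 in Sox7 ECKO, and Mdh2, malate dehydrogenase, had 294 and 157 against 493 and 297. In the Sox17 arm Idh2, isocitrate dehydrogenase, had 102, 25.4 and 24.9 CPM in controls and 39.5, 17.6 and 3.35 in ECKO libraries. Pdk4, a kinase that switches pyruvate dehydrogenase off, had 0, 1.19 and 1.49 CPM in Sox17 controls and 0 in all 3 ECKO libraries.

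The 15 regulators of mitochondrial biogenesis had medians of 0.15 (Sox7, 11 above 0) and −0.17 (Sox17, 7 above 0). Gabpa, the DNA-binding subunit of GABP, had 13.4 and 4.89 CPM in Sox7 controls and 21.9 and 51.5 in Sox7 ECKO, while its partner Gabpb1 had 18.7 and 15.8 against 6.21 and 7.83 CPM. The 2 genes lay in opposite directions. In the Sox17 arm Tfb1m, which modifies mitochondrial ribosomal RNA, had 5.45, 3.79 and 0.186 CPM in controls and 0 counts in all 3 ECKO libraries, so its level lay near the floor. Polrmt, the mitochondrial RNA polymerase, had 0.908, 5.85 and 3.47 CPM against 0, 0.508 and 0. Carriers and channels that move adenine nucleotides and phosphate had medians of 0.26 and 0.40 (5 of 6 above 0 in both comparisons). In the Sox7 arm Vdac2, an outer membrane channel, had 156 and 116 CPM in controls against 252 and 181, and Slc25a4, an adenine nucleotide carrier, 194 and 213 against 171 and 339. In the Sox17 arm the phosphate carrier Slc25a3 had 193, 153 and 250 CPM against 512, 212 and 227, and the adenine nucleotide carrier Slc25a5 had 117, 167 and 212 against 265, 195 and 254. Of these 4, Vdac2 alone showed no overlap.

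**Figure D5:**
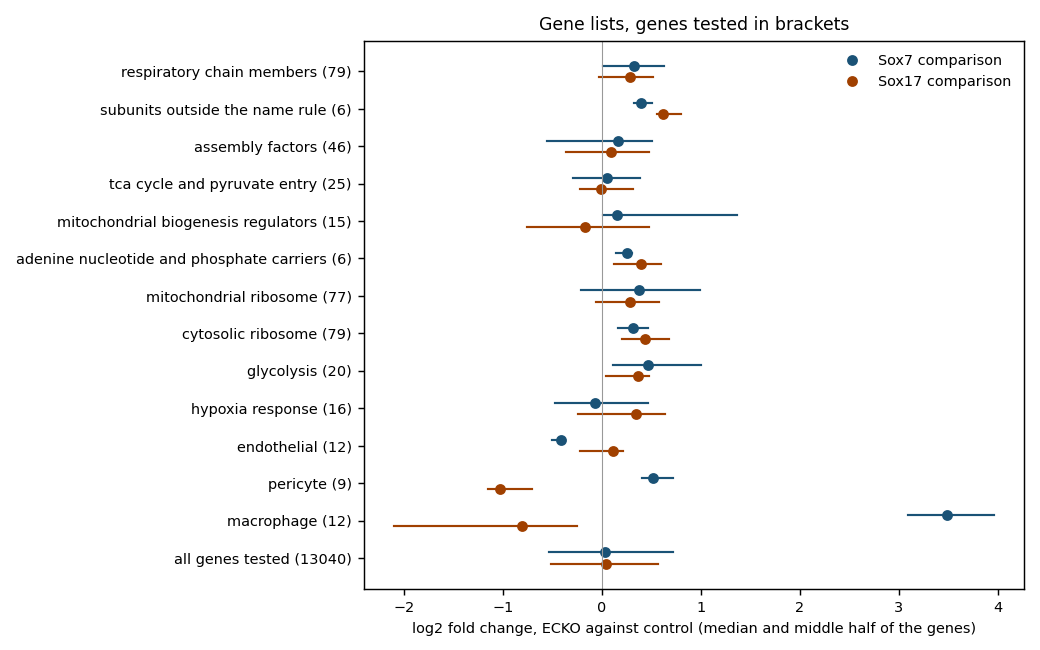
Median log2 fold change, ECKO against control, with the interquartile range of the genes, for the respiratory chain genes and other lists in the Sox7 and Sox17 comparisons. The respiratory chain medians (0.33 and 0.29) lie beside those of mitochondrial ribosome (0.37 and 0.29), cytosolic ribosome (0.31 and 0.44) and glycolysis genes (0.47 and 0.36), and the assembly factor and citric acid cycle medians lie closer to 0.

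Genes for both kinds of ribosome and for glycolysis had medians of like size. The 77 mitochondrial ribosomal protein genes had medians of 0.37 (48 above 0) and 0.29 (53 above 0), and the 79 cytosolic ribosomal protein genes 0.31 (71 above 0) and 0.44 (70 above 0). Glycolysis genes had medians of 0.47 and 0.36, with 16 of 20 above 0 in each comparison. Among them Hk2, hexokinase 2, had 31.4 and 1.66 CPM in Sox7 controls and 444 and 27.5 CPM in Sox7 ECKO, the highest value being that of the library rich in macrophage transcripts. The part of those cells in the Hk2 level was not tested. Aldoa, an aldolase, had 150 and 68.4 CPM against 259 and 171 in the Sox7 arm. Pkm, a pyruvate kinase, had 108, 101 and 190 CPM in Sox17 controls against 360, 128 and 256, and Eno1, an enolase, had 0, 0 and 0.495 against 15.3, 1.33 and 0.124. Rps2, a protein of the small cytosolic subunit, had 37.7, 94 and 73.3 CPM in Sox17 controls and 304, 105 and 133 in Sox17 ECKO (unadjusted edgeR p 0.0117, adjusted p 1), and the highest value was again in set 1. In the Sox7 arm Rpl36, of the large subunit, had 99.6 and 60.9 CPM against 185 and 130. Proteins of the mitochondrial ribosome included Mrpl52, with 21.2 and 11.9 CPM in Sox7 controls against 38.5 and 64.4, and Mrpl36, with 17 and 8.3 against 45.6 and 54.1. Mrpl37 had 11.3, 36.7 and 60.8 CPM in Sox17 controls against 56, 89.1 and 93.3. Mrpl10 had 25.4, 41.9 and 48.6 CPM against 71.8, 97.6 and 78.2 in the Sox17 arm (log2 fold change 1.09, SE 0.48). The 16 hypoxia response genes had medians of −0.07 and 0.35. Mif, a cytokine gene in that list, had 55.6 and 15.2 CPM in Sox7 controls and 128 and 119 CPM in Sox7 ECKO (1.81, SE 0.60, unadjusted edgeR p 0.00708, adjusted p 1). Car9, a carbonic anhydrase, lay lower, with 1.32 and 7.28 CPM in Sox7 controls and 0 in both ECKO libraries. Kdm3a, a histone demethylase, had 78.5, 41.6 and 26 CPM in Sox17 controls and 30.1, 11.3 and 11.9 in Sox17 ECKO, lower in all 3 sets (−1.45, SE 0.67, unadjusted edgeR p 0.0435, adjusted p 1). Ndrg1 had 296, 551 and 225 CPM against 299, 269 and 107. Genes with a mean of at least 10 CPM, a level that 75 of the members reach, had medians of 0.02 and 0.05 over 8320 genes.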

How the data were processed

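RNA of 10 endothelial libraries was sequenced as 3′ tags (Lexogen QuantSeq, 500 ng of total RNA, per the labels' protocols). Each deposited file lists raw counts by gene symbol for 1 library. Bowtie2, edgeR and mm10 are named per the submitters' processing notes, without versions or roles; the counting tool was not given in the sources used here. Repeated lines of a symbol were summed, and 1183 symbols found only in the Sox17 files were left out.

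Counts were tested in R 4.3.3 with the quasi-likelihood F-test of edgeR 4.0.16 (TMM scaling, filterByExpr, 1 mean per group, all 10 libraries, 6 residual degrees of freedom). The filter removed 10198 genes and 13040 were tested, with p-values adjusted over all of them by Benjamini and Hochberg and a threshold of 0.05. SE is the log2 fold change over the square root of F. CPM is relative to the TMM-scaled size, and differences within a set use log2(CPM + 1). Alternatives used DESeq2 1.42.0, other scalings, no filter, a replicate block, the libraries of an arm alone, no Rn45s row, and each library left out. Gene positions come from GENCODE vM21 (GRCm38) and promoters from RefSeq (GRCm38.p6).

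Same-numbered libraries share a run label in 4 of 5 sets, so the numbers were taken to pair them. In the remaining set, deletion and run cannot be told apart. Deviations of same-numbered libraries from group means correlated at 0.193 in the Sox7 sets and at 0.120, 0.0911 and 0.0896 in the Sox17 sets. The members and lists were chosen with earlier results of these data known. Genes named with values are the 8 members with the smallest p in each comparison, the 3 most abundant of each complex, isoforms of restricted expression, symbols that are no subunits, and the 2 genes of smallest p in each pathway list. Other members, such as those given for separation of the groups or for Sox17 control 1, were named after their values were seen. 1 member and 2 genes of a pathway list are counted but not reported here by name.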

Additional observations from a re-analysis of the deposited data

Results flagged for a closer look

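For 3 complex I genes every Sox7 set lay one way and every Sox17 set the other (3.8% of 79 members, against 5.27% of all genes tested), so the share of such members was not above the background. Ndufa11 had differences of 0.41 and 0.39 in the Sox7 sets and −0.84, −0.53 and −0.66 in the Sox17 sets on the log2(CPM + 1) scale, and a contrast of 1.16 (SE 0.98) between the arms. Ndufb9 had 0.24 and 1.66, then −0.06, −0.14 and −0.37, and a contrast of 1.13 (SE 0.70). Ndufs4 had −0.49 and −0.31, then 0.36, 0.11 and 0.80, and a contrast of −0.80 (SE 0.78). edgeR's test of the difference gave an adjusted p of 1 for each of the 3.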

How the results depend on the processing

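All 423 recomputed values of named members kept their direction and stayed short of the threshold over the alternatives run, with a lowest adjusted p of 0.664, and 0 members were called in any of them. These named members are the 8 of smallest p in each comparison, picked in the same data, so their kept direction is no check on the other members. Counts of called genes over the whole table moved. Without the low-count filter edgeR called 58 genes in the Sox7 comparison, 30 in the Sox17 comparison and 58 in the difference, and DESeq2 called 3, 29 and 14. With the replicate block edgeR called 1, 6 and 3, and the member medians were 0.31, 0.27 and −0.05; the block changed no call of a member. An alternative chosen after seeing the data left out Sox7 ECKO 1 and Sox17 control 1, and called 94, 1 and 59 genes. Leaving out each replicate in turn gave 0 to 14 called genes in the Sox7 comparison, 0 to 1 in the Sox17 comparison and 0 to 9 in the difference. The member median then ranged from 0.047 to 0.57 in the Sox7 comparison, from 0.16 to 0.43 in the Sox17 comparison and from −0.20 to 0.26 in the difference. In the Sox7 comparison the median of all genes moved as well, so these ranges alone do not show what is particular to the members. Apart from fewer samples or another set of tested genes, the cause was not tested. The floor covers counting error only, and its 3 counts came to 1.36 CPM in the shallowest library.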
